A study of Mus musculus with 3 samples.

Results

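The 14-3-3 genes were examined in CT26, a mouse colon carcinoma cell line grown in culture. The family comprised Ywhab (14-3-3 beta, NCBI gene 54401), Ywhae (epsilon, 22627), Ywhag (gamma, 22628), Ywhah (eta, 22629), Ywhaq (tau, 22630) and Ywhaz (zeta, 22631). Probe sets were taken where the platform annotation named only 1 of these genes, which gave 8 probe sets for 6 genes out of 19938 genes measured. The genes were chosen by their log2 values in these same columns, so their levels and differences are descriptions and carry no test. Cells had been transfected with a vector that also carried puromycin resistance and GFP, and that encoded the miR-17~92 cluster or, as the control, a control microRNA. The groups were miR-Ctrl (Ctrl below), miR-17~92Med with intermediate amounts of the cluster (Med) and miR-17~92Hi with the highest (Hi). All 3 groups went through puromycin selection, sorting for GFP and growth from single cells. The design speaks of 3 subclones per group, but each group has 1 column of log2 values. The sources used here do not say whether a column is 1 subclone, pooled RNA or a mean. Differences therefore come with no replicate error, and words such as higher and lower compare single columns. Where 3 values are given in a row, they are in the order Ctrl, Med, Hi.

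Proteins of the 14-3-3 family are small, acidic adaptors that work as homodimers and heterodimers. Each monomer has a groove that grips a phosphorylated serine or threonine in a client protein, and binding can hold the client in the cytoplasm, mask an active site or keep it from degradation. Clients include RAF kinases, CDC25 phosphatases, the cell death protein BAD, FOXO factors and the Hippo effector YAP. The family is expressed in nearly all tissues and is among the most conserved in animals.

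The microRNAs that set the groups apart are shown with their seeds, since the study's title concerns the genes they target. The mature strands below come from RefSeq (GRCm38.p6, plus strand of chromosome 14, from chr14:115043684-115043706 for the first to chr14:115044476-115044496 for the last), and capitals mark the seed, bases 2 to 8.
mmu-miR-17-5p: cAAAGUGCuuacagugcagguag
mmu-miR-20a-5p: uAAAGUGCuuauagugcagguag
mmu-miR-18a-5p: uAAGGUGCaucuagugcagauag
mmu-miR-19a-3p: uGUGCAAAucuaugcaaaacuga
mmu-miR-19b-3p: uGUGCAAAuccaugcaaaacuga
mmu-miR-92a-3p: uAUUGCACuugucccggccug
The 6 strands carry 4 distinct seeds, 1 shared by miR-17 and miR-20a and 1 by miR-19a and miR-19b. Target sites in the 14-3-3 transcripts were not analysed here. Mir17hg, the cluster's host transcript, was at 5.98 in Ctrl and 6.02 in Med and Hi, under the expression filter given next, so the array does not show the labelled levels of the cluster.

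Some facts of the columns touch every comparison. The expression filter kept the 9969 genes whose mean level was at or above 7.13, the median over all genes. Interquartile ranges of the log2 values were 2.42, 3.12 and 3.08, and 265, 873 and 853 probe sets lay above 12, so high levels were rarer in Ctrl. Med and Hi held exactly equal values in 15551 of 35556 probe sets (43.7%), and Ctrl and Med in 3112 (8.75%). Of 13 colon epithelium markers 5 passed the filter (Krt8, Krt18, Krt19, Cdx1 and Cldn3), while Epcam, Cdh1, Vil1 and Cdx2 did not. Krt8, Cdx1 and Cldn3 were 2-fold lower than Ctrl in both other columns and Krt18 was 2-fold higher. None of 11 leukocyte or 5 endothelial markers passed. Of 7 fibroblast markers 4 did, with members on both sides: Pdgfra was at 7.26, 9.79 and 10.27, and Col1a1 at 8.76, 7.44 and 7.57. The part of these column and marker differences in the values below was not tested.

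**Figure D1:**
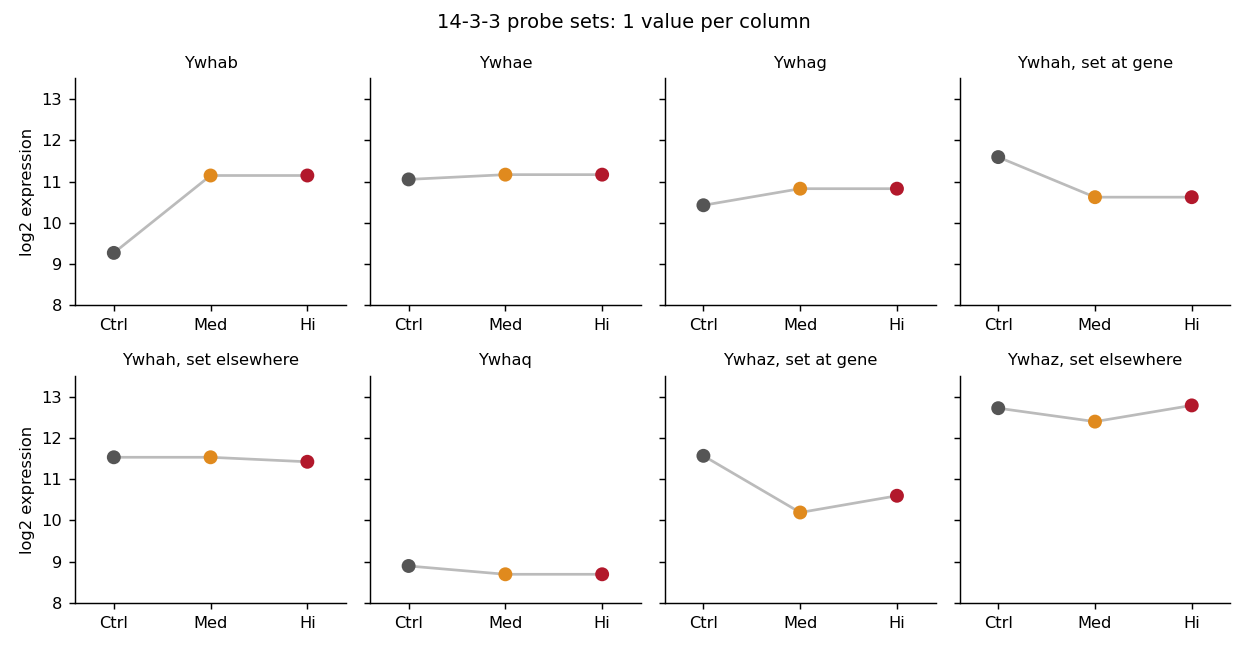
Log2 expression (y axis) of each of the 8 probe sets of the 14-3-3 genes in the Ctrl, Med and Hi columns (x axis), 1 value per column and no error bars. Ywhab lies at 9.27 in Ctrl and 11.15 in both others, and the Ywhaz probe set at the gene's own place is highest in Ctrl, at 11.57.

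Ywhab was the 14-3-3 gene that set the miR-17~92 columns furthest above the control. Its protein, 14-3-3 beta, is a classic partner of RAF kinases. Ywhab had a level of 9.27 in Ctrl against 11.15 in Med and 11.15 in Hi, a log2 difference of 1.88 (3.67-fold) in both columns. The Med and Hi values were exactly equal. It was the only one of the 6 genes at least 2-fold apart from Ctrl in the deposited values. Over all genes that passed, 43.6% were 2-fold apart from Ctrl in Med (34.9% higher) and 41.8% in Hi (33.5% higher), so 1 of 6 is not above the background.

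Ywhae and Ywhag were slightly higher in the miR-17~92 columns in the deposited values. Ywhae, which encodes the epsilon isoform and neighbours the adaptor gene Crk, was at 11.05 in Ctrl and 11.17 in both Med and Hi. Ywhag, the gamma isoform, was at 10.42 in Ctrl and 10.83 in Med and Hi. The differences of 0.12 and 0.40 were both below the median of all genes past the filter, 0.42 for Med, and the Ywhag value was just above the median of 0.39 for Hi. Both signs turned to negative with quantile normalization, with cyclic loess, and with columns centred on the genes past the filter. Under those 3 scalings Ywhae lay between -1.52 and -0.42 and Ywhag between -1.06 and -0.14.

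Ywhaq, the tau isoform known from T cells, was at 8.90 in Ctrl and 8.69 in both Med and Hi. The difference was -0.20 in both. It was negative under 4 of the 5 scalings, down to -0.98 in Med, and turned to 0.10 in Med and 0.09 in Hi when columns were centred on the median of all probe sets, a shift that is the same for every gene.

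Ywhah, the eta isoform, had 2 probe sets that did not show the same difference. The probe set that lies by number between those of Depdc5 and Slc5a1, neighbours of the gene itself, was at 11.59 in Ctrl and 10.62 in both Med and Hi, a difference of -0.97. The other lies between those of Zfp697 and Wars2, which are not near Ywhah in the RefSeq gene order, and was at 11.53, 11.53 and 11.42. Here Ctrl and Med were exactly equal. Their mean gave differences of -0.49 in Med and -0.54 in Hi.

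Ywhaz, the zeta isoform, often the most studied of the family in tumours, also had 2 probe sets. The set beside Pabpc1, next to the gene itself, was at 11.57, 10.19 and 10.60. It was thus lower in both miR-17~92 columns, by -1.37 in Med and -0.97 in Hi. The other, between probe sets of the cornified envelope genes Lce1c and Lce3b, was at 12.72, 12.40 and 12.79, differences of -0.33 and 0.07. Averaged, Ywhaz differed from Ctrl by -0.85 in Med and -0.45 in Hi.

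The place of a probe set was read from its number, since 93.6% of adjacent single-gene probe sets belonged to genes of the same chromosome. Both displaced sets had 0 of 6 neighbouring probe sets on the chromosome of the gene they are annotated to, while the other 6 sets of the family had at least 4. RefSeq's gene table holds 3 loci named as Ywhaq pseudogenes, and whether copies of 14-3-3 sequence share signal with the genes was not tested. The values of Ywhah and Ywhaz from displaced sets are uncertain because of where those sets lie, and which sequence they read is not known. With only the sets at the genes' own place, Ywhab was 2-fold higher and Ywhaz 2-fold lower in Med (2 of 6 genes), and in Hi Ywhab alone was 2-fold apart. Over all genes past the filter 8.7% were 2-fold lower in Med and 8.4% in Hi, and 1 gene of 6 carries little weight beside that.

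**Figure D2:**
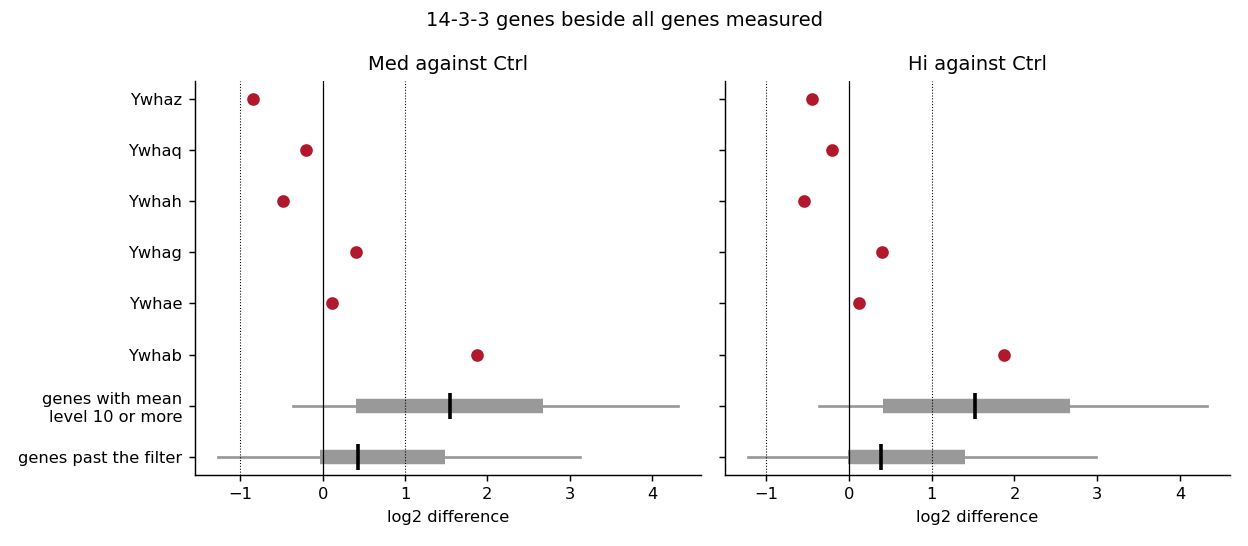
Log2 difference (x axis) of the 6 genes from Ctrl, for Med on the left and Hi on the right, above the spread of all 9969 genes past the filter and of the 882 genes with a mean level of 10 or more (thin line, percentiles 5 to 95; thick bar, 25 to 75; tick, median). The mean level includes the Med and Hi columns. Dotted lines mark 2-fold, and Ywhab, at 1.88, is the only member beyond them.

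The position of the family as a whole depended on the scaling. In the deposited values 3 genes lay higher and 3 lower than Ctrl in each comparison, and the family median was -0.04 in both. Over all genes past the filter the medians were 0.42 in Med and 0.39 in Hi, while over all genes without the filter they were -0.20 and -0.19. With columns centred on all probe sets 4 of 6 genes were above Ctrl and the family median was 0.25 in both. It was -0.64 and -0.58 with centring on filtered genes, -1.09 and -1.06 with quantile normalization and -1.29 and -1.25 with cyclic loess. Under each of these 5 scalings it was below the median of the genes past the filter. Both comparisons use the same Ctrl column.

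Other abundant transcripts gave a comparison that turned on how they were picked, with floors chosen after the values were seen. Of 882 genes with a mean level of 10 or more, 60.7% were 2-fold higher in Med than in Ctrl and 1.7% lower, with a median difference of 1.54. In Hi the shares were 60.4% and 1.81%, with a median of 1.52. That mean takes in the Med and Hi columns, so genes high there enter more readily, Ywhab among them with 9.27 in Ctrl. Of 416 genes at 10 or more in Ctrl itself, 17.3% were 2-fold higher in Med and 13.2% lower, the shares were the same in Hi, and the medians were 0.05. The 4 members above that floor were Ywhae, Ywhag, Ywhah and Ywhaz, and their differences, between -0.85 and 0.40 in Med, lay on both sides of that median.

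**Figure D3:**
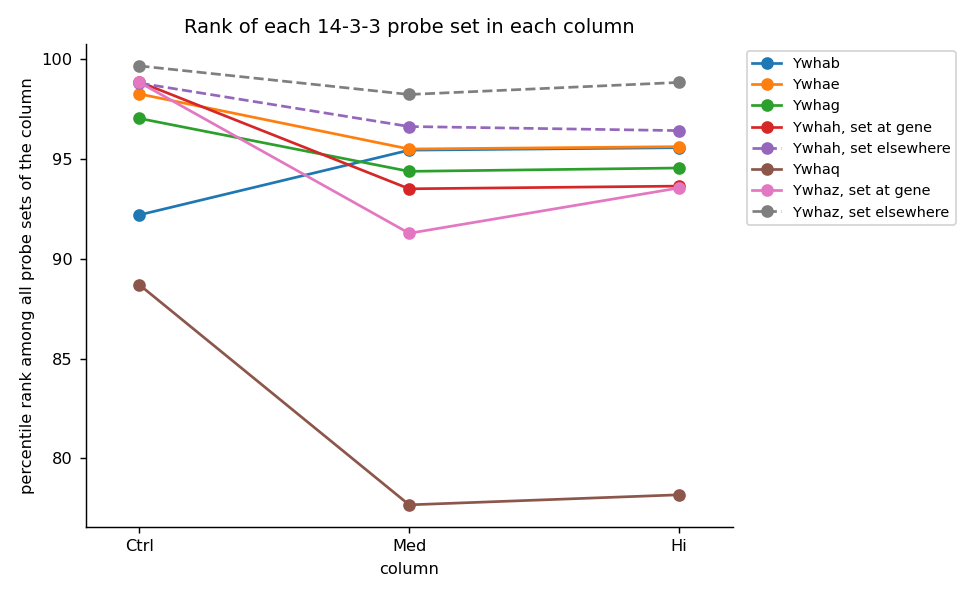
Percentile rank (y axis) of each 14-3-3 probe set among all 35556 probe sets of a column, for Ctrl, Med and Hi (x axis); dashed lines are the 2 displaced probe sets. Each line is to be read against itself, and the Ywhab line alone goes up from Ctrl, from 92.2 to 95.4 and 95.6.

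Ranks within a column do not depend on any shift or stretch of that column. The Ywhab probe set was at percentile 92.2, 95.4 and 95.6. The other 7 probe sets all ranked lower in Med and in Hi than in Ctrl. Ywhae went from 98.3 to 95.5 and 95.6, and Ywhag from 97.0 to 94.4 and 94.6. The native Ywhah set stood at 98.9, 93.5 and 93.6, and the native Ywhaz set at 98.8, 91.3 and 93.6. Ywhaq went from 88.7 to 77.7 and 78.2. Its log2 difference was only -0.20, against -1.37 in Med for the native Ywhaz set, so steps in rank do not compare in size between members. Among single-gene probe sets with a mean level of 10 or more, a floor that again includes Med and Hi, 42.3% ranked lower in Med than in Ctrl and 42.0% in Hi. Over those with a mean at or above the filter level the shares were 51.3% and 51.2%. No share was computed for probe sets picked by their level in Ctrl, where high levels were rarer. A lower rank is also not a lower level. Ywhae and Ywhag ranked lower although their levels were higher in Med and Hi, by 0.12 and 0.40.

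**Figure D4:**
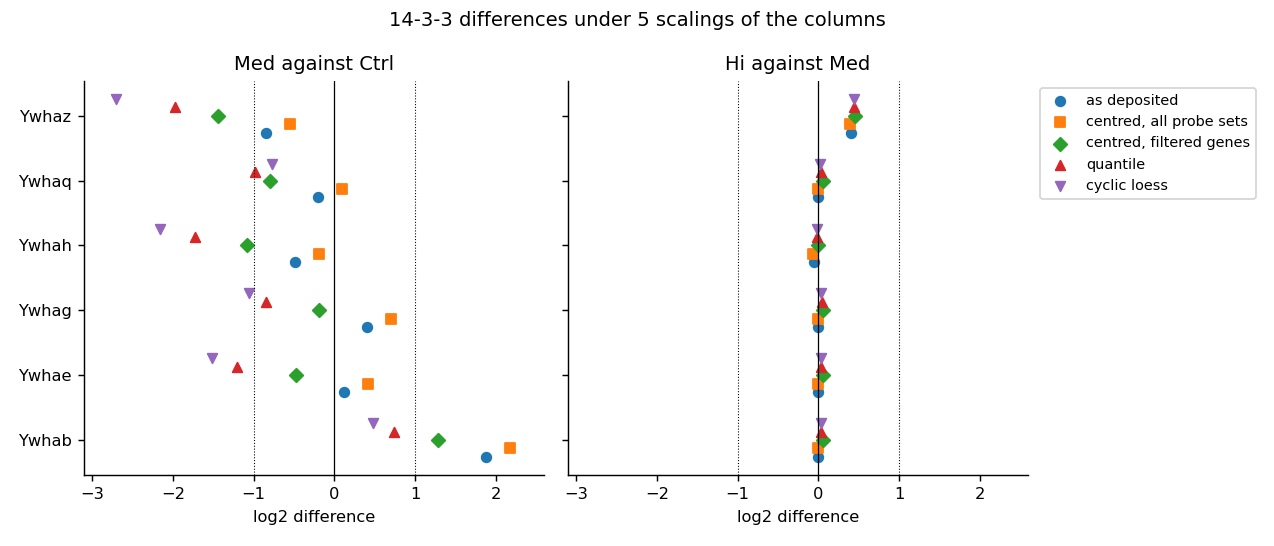
Log2 difference (x axis) of each 14-3-3 gene under 5 scalings of the columns, for Med against Ctrl on the left and Hi against Med on the right; dotted lines mark 2-fold. Against Ctrl the whole family shifts with the scaling, and Ywhab stays highest under each, between 0.48 and 2.17, while Hi against Med hardly moves.

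The distance of Ywhab from its relatives cannot change when a whole column is shifted, so of the scalings tried only quantile normalization and cyclic loess bear on it. In the deposited values its difference from Ctrl exceeded the median of the other 5 genes by 2.08 in Med and in Hi. With quantile normalization it was 1.95 in both, and with cyclic loess 2.003 in Med and 1.999 in Hi. It exceeded the next highest member, Ywhag or with cyclic loess Ywhaq, by 1.48 in the deposited values, 1.60 and 1.59 with quantile normalization and 1.26 and 1.27 with cyclic loess in Med and Hi. The size against Ctrl itself was less firm, at 0.75 with quantile normalization and 0.48 with cyclic loess in Med, under 2-fold. Ywhah and Ywhaz, taken as means of their probe sets, were below Ctrl under all 5 scalings. Under quantile normalization 3 members (Ywhae, Ywhah and Ywhaz) were 2-fold lower than Ctrl in Med and in Hi and none higher, and under cyclic loess these and Ywhag were. Of the 9969 genes past the filter, 1875 were 2-fold lower in Med and 1781 in Hi with quantile normalization. With cyclic loess 1121 and 1047 were lower. Those 2-fold higher numbered 2485 and 2450 with quantile normalization and 2408 and 2302 with cyclic loess. The split of all genes 2-fold apart moved as well, from 80.0% higher in Med as deposited to 57.0% with quantile normalization, 68.2% with cyclic loess and 89.9% with columns centred on all probe sets.

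Between the high and medium levels of the cluster the family was nearly flat. No member was 2-fold apart between Hi and Med, where 1.54% of all genes past the filter were. Ywhab, Ywhae, Ywhag and Ywhaq held exactly equal values in both columns, as did 45.9% of genes past the filter. The Ywhah mean differed by -0.05. Ywhaz alone was higher in Hi, by 0.40, and its 2 probe sets gave 0.41 and 0.39. Only 3.14% of genes past the filter had a higher difference, and the Ywhaz value stayed between 0.39 and 0.46 under the 5 scalings. Without replicate columns the spread that such a value should be read against is unknown.

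Sfn, the p53-induced sigma isoform of epithelial cells and the remaining 14-3-3 gene, was not among the members and is given for completeness. Its probe set beside Nudc was at 7.88, 7.04 and 7.20. A second set, placed away from the gene between Gtpbp3 and Mvb12a, was at 7.23, 6.66 and 6.78. The gene mean lay below Ctrl by -0.70 in Med and -0.57 in Hi, and the sign was negative under all 5 scalings.

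Some genes outside the family had nearly the same 3 values as a member. The measure was the Euclidean distance over the log2 levels of the columns, among the 9666 other genes that passed the filter and carry no predicted or clone-derived name. The translation factor gene Eif3l was closest to Ywhab (distance 0.07), Gatad2b to Ywhae (0.10), the actin capping gene Capzb to Ywhag (0.06), the small nucleolar RNA Snora3 to Ywhah (0.06), Tsfm to Ywhaq (0.03) and Pabpn1 to Ywhaz (0.31). With 3 columns such matches are common: 582 genes lay within 0.5 of Ywhaq, 61 of Ywhab and 1 of Ywhaz.

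Genes of known 14-3-3 clients, of the kinases that create docking sites on them and of phosphatases that act on them were followed as lists. Of 96 genes listed, 91 had a single-gene probe set and 85 passed the filter. In Med 26 of these (30.6%) were at least 2-fold higher than Ctrl and 2 (2.35%) lower, and the median difference was 0.34. In Hi there were 25 higher (29.4%) and 2 lower ones, and the median was again 0.34. The shares of higher genes are near the background of 34.9% and 33.5%. Counts by list below are for genes past the filter in the deposited values and have the same background. The filter's mean takes in Med and Hi, so genes high there pass more readily. Without the filter 26 of the 91 were higher and 6 lower in Med, and 25 and 6 in Hi. Over all 19938 genes without it, 3655 were higher and 3256 lower in Med, and 3485 and 3077 in Hi. With quantile normalization the split in Med was 16 higher and 17 lower, so the lists as a whole have no direction that holds under every scaling.

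**Figure D5:**
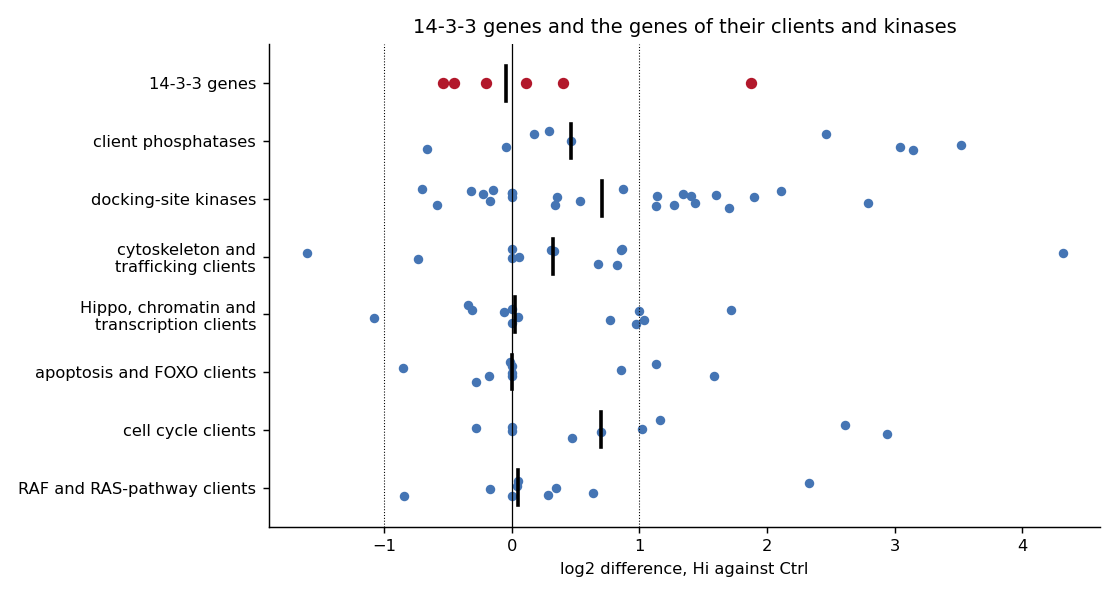
Log2 difference of Hi from Ctrl (x axis) for each gene past the filter in 7 lists of 14-3-3 clients, kinases and phosphatases (blue points) and for the 6 14-3-3 genes (red); black ticks are medians and dotted lines mark 2-fold. Points are spread vertically for legibility, and the Krt18 point, at 4.31, is the one furthest right.

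Kinases that write the docking sites had 10 of 24 members past the filter 2-fold higher in Med and 11 in Hi, with medians of 0.65 and 0.70. None of the 24 was 2-fold lower. Of the 27 kinases measured, Prkaa2, Prkd1 and Mark1 were under the filter. Each of these was 2-fold lower in both columns, by -1.06, -1.34 and -1.33 in Med and -1.13, -1.28 and -1.20 in Hi. Akt1, which phosphorylates BAD and FOXO factors, was at 9.69 in Ctrl and 11.29 in Med and Hi. Akt2 was at 8.32, 9.53 and 9.76. Akt1 was 2-fold higher under 3 of 5 scalings, with a lowest difference of 0.11 in Med and 0.15 in Hi, and Akt2 under 2 of 5, with 0.44 and 0.69. The AMP-activated kinase gene Prkaa1 was at 7.67 in Ctrl and 10.46 in Med and Hi, and Prkacb, a catalytic subunit of protein kinase A, at 7.61, 9.81 and 9.72. Prkaa1 and Prkacb were 2-fold higher under all 5 scalings. Pim2, a survival kinase that phosphorylates BAD, was at 8.59, 8.19 and 9.93. It was the only listed gene 2-fold apart between Hi and Med, by 1.74, and between 1.57 and 1.80 under the 5 scalings. Over all genes past the filter 0.682% were 2-fold higher in Hi than in Med.

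Phosphatase genes, which can release clients by removing the phosphate, were 2-fold higher in 4 of 9 in both columns of the deposited values. None was 2-fold lower there. Over all genes past the filter 34.9% were 2-fold higher in Med and 33.5% in Hi. The shares were 60.7% and 60.4% for genes with a mean level of 10 or more. Ppp1ca was at 9.16, 12.09 and 12.30, Ppp1cc at 8.43, 11.49 and 11.47, and the scaffold Ppp2r1a at 8.93, 12.51 and 12.45. Each of these 3 was 2-fold higher under all 5 scalings. Ppp1cb was at 10.92 in Ctrl and 10.87 in Med and Hi, and its sign turned to positive with centring on all probe sets. It was 2-fold lower under 2 of 5 scalings in both columns, down to -1.58 in Med and -1.55 in Hi.

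Cell cycle clients had 5 of 9 members 2-fold higher in Med and 4 in Hi, with medians of 1.32 and 0.70. Over all genes past the filter 34.9% and 33.5% were 2-fold higher. The 4 in Hi were Cdc25c, Mdm4, Kif23 and Ect2, also higher in Med. Each was under the filter level of 7.13 in Ctrl and passed on a mean that takes in Med and Hi. Ect2, an exchange factor for cell division, was at 6.996, 10.51 and 9.94, and Mdm4, an inhibitor of p53, at 6.58 in Ctrl and 9.19 in both others. The phosphatase Cdc25b, which 14-3-3 proteins keep inactive, was at 8.33, 9.65 and 9.03, and Cdc25a at 7.53, 8.23 and 8.01. Ect2 and Mdm4 were 2-fold higher under all 5 scalings, while Cdc25b was so under 2 of 5 in Med (lowest 0.61) and none in Hi (lowest 0.01). From Med to Hi 6 of the 9 were lower, 3 equal and none higher, and none was 2-fold apart. Over all genes past the filter 31.3% were lower and 22.8% higher in Hi than in Med.

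Apoptosis, FOXO and growth clients had 3 of 10 members 2-fold higher in Med and 2 in Hi. Bad was at 8.48, 7.57 and 7.63, and Foxo1 at 7.85 in every column. Bad was below Ctrl under all 5 scalings. In both columns it was 2-fold lower under 2 of 5, down to -1.51 in Med and -1.39 in Hi. The mTOR brake Tsc2 was at 8.28, 9.88 and 9.86, and Rptor, a subunit of mTOR complex, at 8.45, 9.71 and 9.58. Tsc2 was under 2-fold with quantile normalization and cyclic loess. Rptor was so with those and with columns centred on the filtered genes.

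Hippo, chromatin and transcription clients had 2 of 12 members 2-fold higher and 1 lower in each column. Of the 14 genes measured, Hdac9 and Zfp36 were under the filter. Hdac9 was 2-fold lower in both columns, by -1.68 in Med and -1.70 in Hi, and Zfp36 was equal in all columns. Yap1 was at 9.23, 10.50 and 10.20, and Wwtr1, its paralogue TAZ, at 8.65, 10.85 and 10.37. The Wwtr1 difference was at least 2-fold under all 5 scalings in Med, between 1.03 and 2.49, but under 3 of 5 in Hi, where its lowest value was 0.58. That of Yap1 was 2-fold under 2 of 5 in Med, with a lowest value of 0.10, and in Hi it turned sign, between -0.17 and 1.26. Mlxipl, the carbohydrate-responsive factor, was at 8.07 in Ctrl and 6.99 in Med and Hi, and Zfp36l1, an RNA decay factor, at 7.92, 8.54 and 8.96. In both columns Mlxipl was 2-fold lower under 3 of 5 scalings, and Zfp36l1 was 2-fold higher under 2 of 5 in Hi.

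Cytoskeletal and trafficking clients had 1 of 12 members 2-fold higher and 1 lower. The higher one was the keratin Krt18, at 7.97, 11.41 and 12.28, and the lower one its partner Krt8, at 8.92, 7.28 and 7.32. Both stayed 2-fold apart from Ctrl under all 5 scalings. The actin regulator Ssh1 was at 7.77 in Ctrl and 8.08 in Med and Hi, and the motor Kif13b at 7.64, 8.37 and 8.50.

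RAF and other RAS-pathway clients had 1 of 9 members 2-fold higher and none lower. Braf was at 8.91 in every column, and Araf at 8.21 in Ctrl and 8.84 in both others. Map3k5, the stress kinase ASK1, was at 7.18, 9.23 and 9.50 and was 2-fold higher under all 5 scalings. Bcr was at 9.70, 8.74 and 8.87, below Ctrl under all 5 scalings. It was 2-fold lower under 3 of 5 in both columns, down to -1.89 in Med and -1.75 in Hi.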

How the data were processed

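Per the labels' protocols, Affymetrix arrays were hybridized with biotin-labelled RNA made by linear amplification from random primers. GCRMA and Affymetrix Expression Console are named, per the submitters' processing notes, without version or role. The deposited table of the authors holds log2 values for 35556 probe sets in 3 columns, the log base taken from their range. Array precision is limited by having 1 column per group, so no test, SD or interval was computed. Gene names came from GEO's platform annotation, updated by gene number to RefSeq (GRCm38.p6) for 21698 of 21789 single-gene probe sets (99.6%). There were 1621 probe sets with several genes and 12146 with none, and these named no gene. Probe sets of a gene were averaged. A gene 2-fold apart (log2 difference of 1) was counted. Named genes were the members, Sfn, the first 2 listed genes past the filter per list, up to 2 more with the largest difference of Hi from Ctrl, those 2-fold apart between Hi and Med, and the nearest gene per member. The members and lists were chosen with earlier results of these data known. Alternatives were centred columns, quantile normalization and cyclic loess (limma 3.58.1 in R 4.3.3), the highest probe set, a 1.5-fold limit and no filter. Added after the data were seen were centring on filtered genes and only probe sets at a gene's own place. The counting step was tested on simulated data.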

Additional observations from a re-analysis of the deposited data

Results flagged for a closer look

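The Ywhaz probe set placed between Lce1c and Lce3b lay below Ctrl in Med (-0.33) and above it in Hi (0.07). Both differences use the Ctrl column and 1 value per group, and the difference between them was not tested. For the set between Lce1c and Lce3b the signs stayed opposite with columns centred on all probe sets, at -0.03 in Med and 0.36 in Hi. Both were negative with quantile normalization (-1.38 and -0.92) and with cyclic loess (-2.53 and -2.09). The other Ywhaz probe set was below Ctrl in both columns. Pim2 lay below Ctrl in Med (-0.40) and above it in Hi (1.34), and this difference was not tested either.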

How the results depend on the processing

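Counts of 14-3-3 genes 2-fold apart from Ctrl depended on the scaling. In Med the 1 gene of the deposited values became 3 with quantile normalization and 4 with cyclic loess (all lower), 2 at a 1.5-fold limit (Ywhaz lower), 2 with native-place probe sets (Ywhaz lower) and 3 with centring on filtered genes (1 higher, 2 lower). In Hi it became 3, 4 and, with centring on filtered genes, 2. Centring on all probe sets and the highest probe set left it at 1 in both, and no alternative gave a 2-fold gene between Hi and Med. Of the 9969 genes past the filter, 3475 were higher and 867 lower in Med as deposited. These became 2485 and 1875 with quantile normalization and 2408 and 1121 with cyclic loess. Centring on filtered genes gave 2282 and 1746, and the 1.5-fold limit 4527 and 1460. In Hi the deposited values gave 3335 and 837, quantile normalization 2450 and 1781, and cyclic loess 2302 and 1047. Centring on filtered genes gave 2230 and 1637 there. Of 126 values of single genes under an alternative, 103 kept their side of the fold limit, 23 did not, and none that was 2-fold apart changed sign. For the client and kinase lists only the total stayed within 1.5 times. The split of 26 higher and 2 lower in Med became 16 and 17 with quantile normalization and 16 and 11 with cyclic loess, and that of 25 and 2 in Hi became 14 and 15, and 14 and 10. Over all genes, no filter gave 6911 (Med) and 6562 (Hi) in place of 4342 and 4172. The share higher then fell from 80.0% to 52.9% in Med and from 79.9% to 53.1% in Hi, and the median turned from 0.42 to -0.20 and from 0.39 to -0.19. For Hi against Med quantile normalization gave 100 and a 1.5-fold limit 519 in place of 154. No paired analysis was possible because each group has 1 column. Values near background limit low genes: olfactory and vomeronasal receptor genes lay at a median of 4.92 in Ctrl and of 4.51 in both others, and every member was at or above 8.69.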
